A study of Mus musculus with 8 samples.

Results

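The superoxide dismutases Sod1 and Sod2 and 5 further antioxidant genes, Cat, Gpx1, Prdx1, Mt1 and Mt2, were followed across 8 cDNA arrays. They were found by gene symbol in the platform's annotation, which names 9930 genes in this table. The annotation gave 2 probes each for Sod2, Sod1 and Mt2 and 1 probe each for the other 4 genes, 10 probes in all. The genes, with Sod2 leading, were chosen by their measured log2 ratios on these same arrays, so their own values are a description and carry no test.

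Superoxide dismutases turn superoxide, a by-product of respiration, into oxygen and hydrogen peroxide. Sod2, the manganese enzyme, works in the mitochondrial matrix, and Sod1, the copper and zinc enzyme, mainly in the cytosol. Catalase (Cat), glutathione peroxidase (Gpx1) and peroxiredoxin (Prdx1) then remove the peroxide, while the metallothioneins Mt1 and Mt2 are small cysteine-rich proteins that bind zinc and copper and are induced by these metals. Pluripotent stem cells rely largely on glycolysis and hold immature mitochondria.

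HM-1 and R1 are lines of mouse embryonic stem cells, and RNA of both was hybridised together on every array, each line in its own dye. On 4 arrays the cells were untreated, and on the other 4 they had received nocodazole, which takes microtubules apart and so stops cells in mitosis, at a dose and for a time that the labels do not state. HM-1 is known as a line that lacks Hprt. The labels put HM-1 in Cy5 on untreated replicates 1 and 2 and nocodazole replicates 1, 2 and 3, and in Cy3 on the remaining 3 arrays. By these labels the dyes are swapped on 37.5% of the arrays, against 50% in the design text. The protocols in the labels describe organs and a pooled reference from animals, which does not match the channel labels. The labels leave unsaid whether replicates are separate cultures, and p-values therefore rest on a spread between arrays that may be technical.

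Each value is a log2 ratio between the lines, with the median of its array subtracted. Which line is the numerator is not settled, and neither is whether the 3 arrays with HM-1 in Cy3 run the same way as the others. Signs are therefore those of the deposited table, the reading with the Cy3 arrays turned in sign is given beside the results that rest on a sign, and no line is called higher. The arrays held 17928 to 19445 values of 20355 probes, and their standard deviation lay between 0.784 and 1.28, highest on nocodazole replicate 3. On 74 to 203 spots per array the table holds a code in place of a ratio, equal to a ratio of 100000 on the Cy5 arrays and to its inverse on the Cy3 arrays, and these were set to missing. The sign of the code thus follows the dye label, and whether the Cy3 arrays were inverted before deposit was not tested. Spot brightness was not available here, but a ratio of small whole numbers is a sign of a very dim spot. Between 10.9% and 19.7% of an array's values matched such a ratio, with numerator and denominator of at most 10 and within 0.0015 in log2 units, against 4.36% to 4.82% with the array's offset shifted by 0.05. Because treated and untreated cells of 1 line never shared an array, a difference between the conditions is a change in the ratio between the lines, and fewer cells of a type cannot be told apart from less RNA per cell.

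The members had 69 of 80 possible values. Of the rest, 8 were missing and 3 were coded, Sod2 probe 6281 and Gpx1 with the positive code on untreated replicate 1 and Mt1 with the negative code on nocodazole replicate 4. Only 6 of the 10 probes had a value on every array, and 13 of the 69 values were whole-number ratios. Gpx1 and Mt1 had too few values to enter the fit across all features, which asked for 3 arrays in each group, while the other 5 members entered it. A log2 ratio beyond 1 in either direction occurred on probes 6281 of Sod2, 7877 of Sod1, 3221 of Cat, 19151 of Gpx1 and 14434 of Mt1, as the plot of every probe on every array shows.

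**Figure D1:**
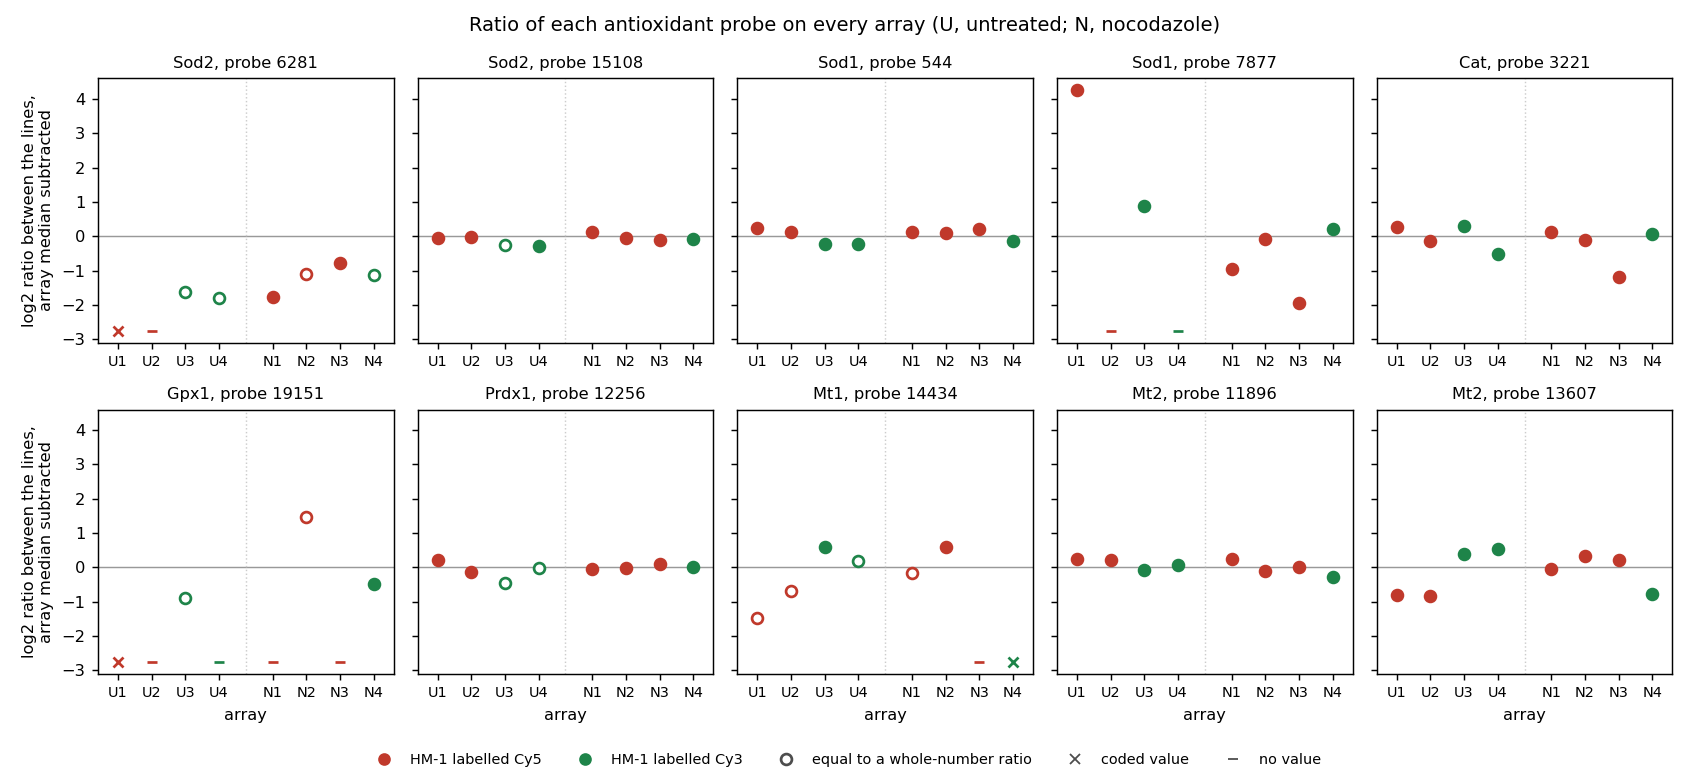
Log2 ratio between the lines (array median subtracted) of each of the 10 antioxidant probes on untreated replicates 1 to 4 (U) and nocodazole replicates 1 to 4 (N), coloured by the dye of HM-1. Open points equal a whole-number ratio, and crosses and dashes at the bottom mark coded and missing values, whose height carries no value. Probe 6281 of Sod2 lies between -1.81 and -0.79, while probe 15108 of the same gene lies between -0.30 and 0.11.

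Sod2, the mitochondrial dismutase, was negative on all 8 arrays as a mean of its probes, but its 2 probes did not show the same ratio. On untreated replicates 3 and 4, probe 6281 read -1.64 and -1.81, followed by -1.77, -1.11, -0.79 and -1.135 on nocodazole replicates 1 to 4. On untreated replicate 2 it was missing, and on untreated replicate 1 it was coded, with the positive code, opposite in sign to its values. Every value that is not coded is at or below -0.79 under the deposited signs, on arrays of either dye label, with a mean of -1.37 ± 0.42 (SD, n = 6). The group means were -1.72 ± 0.12 (SD, n = 2) untreated and -1.20 ± 0.41 (SD, n = 4) with nocodazole, and the ranges of the groups overlapped.

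Of these 6 values of probe 6281, 4 were whole-number ratios. Without the array's offset the spot stood at 1 to 3 on untreated replicates 3 and 4, at 1 to 2 on nocodazole replicate 2 and at 3 to 8 on nocodazole replicate 4. Among all probes with at least 6 values, 690, or 3.88%, had 4 or more such ratios. The median standard deviation over arrays was 1.25 for those probes and 0.294 for the 7720 probes with none. A mean at least as far from 0 as that of probe 6281 was found in 1.59% of the former and 0.142% of the latter. The part of spot brightness in the Sod2 value was not tested.

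Probe 15108 of Sod2 had a value on every array and stayed near 0. Its untreated values were -0.055, -0.022, -0.24 and -0.30 in the order of replicates 1 to 4, followed by 0.11, -0.046, -0.11 and -0.095 on nocodazole replicates 1 to 4. It was negative on 7 of 8 arrays, and only the value of untreated replicate 3 was a whole-number ratio (7 to 8). The means were -0.15 ± 0.14 untreated and -0.034 ± 0.10 with nocodazole (SD, n = 4 each), with overlapping ranges. By dye label the values were -0.024 ± 0.081 (SD, n = 5) with HM-1 in Cy5 and -0.21 ± 0.10 (SD, n = 3) with HM-1 in Cy3.

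**Figure D2:**
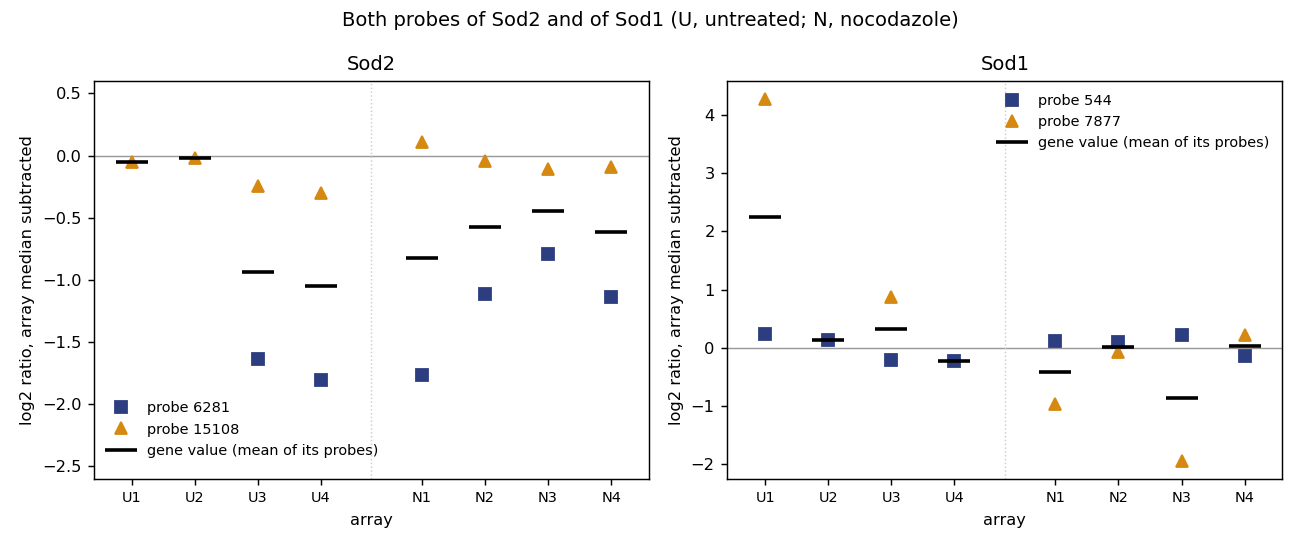
Log2 ratio (array median subtracted) of both probes of Sod2 (left) and of Sod1 (right) on each array, with the gene value as the mean of the probes present (black bar). On untreated replicates 1 and 2 the Sod2 value rests on probe 15108 alone, and on untreated replicate 1 the Sod1 value of 2.25 is set by probe 7877 at 4.27.

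The gene value of Sod2 therefore mixes unlike arrays. It was -0.055 and -0.022 on untreated replicates 1 and 2, where only probe 15108 was present, and -0.94 and -1.05 on untreated replicates 3 and 4. With nocodazole it was -0.83, -0.58, -0.45 and -0.615. The means, -0.52 ± 0.55 untreated and -0.62 ± 0.16 with nocodazole (SD, n = 4 each), differed by less than the spread between arrays. With the Cy3 arrays turned they became 0.48 ± 0.60 and -0.31 ± 0.64 (SD, n = 4 each), so neither the sign in untreated cells nor the difference between the conditions is settled. Keeping the coded value of untreated replicate 1 in place of a missing one turned the untreated mean from -0.52 to 1.60. Taking the probe with the most values, 15108, gave -0.15 and -0.034, and leaving out the whole-number ratios gave -0.12 untreated and -0.35 with nocodazole. Leaving out untreated replicate 3 or 4 brought the untreated mean from -0.52 to -0.38 and -0.34.

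On the 6 arrays that both Sod2 probes share, probe 6281 was as deposited lower than probe 15108 each time. The difference was 1.26 on average on the log2 scale and 0.685 at the least. With the Cy3 arrays turned, probe 6281 was the higher on untreated replicates 3 and 4 and nocodazole replicate 4, at 1.64, 1.81 and 1.135. Probe 15108 then read 0.24, 0.30 and 0.095 there. Probe 6281 stayed the lower on nocodazole replicates 1 to 3. The single direction, the average and the shares below therefore hold for the deposited signs. The table held 1610 genes with 2 probes that share at least 6 arrays, and their median difference was 0.207. Of these genes, 24, or 1.49%, had a mean difference as large as that of Sod2. Sod2 was the only one whose probes differed in 1 direction by at least 0.685 on every shared array. That limit is Sod2's own smallest difference, which Sod2 meets by construction. Slc43a2 had a larger mean difference, 2.08, also in 1 direction, and 0.593 at the least. Since Sod2 was chosen by its ratios on these arrays, its place among these genes is a description and no test. The probes of Sod1 differed by 0.347 on average over 6 shared arrays and those of Mt2 by 0.161 over 8, in neither case in 1 direction throughout.

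**Figure D3:**
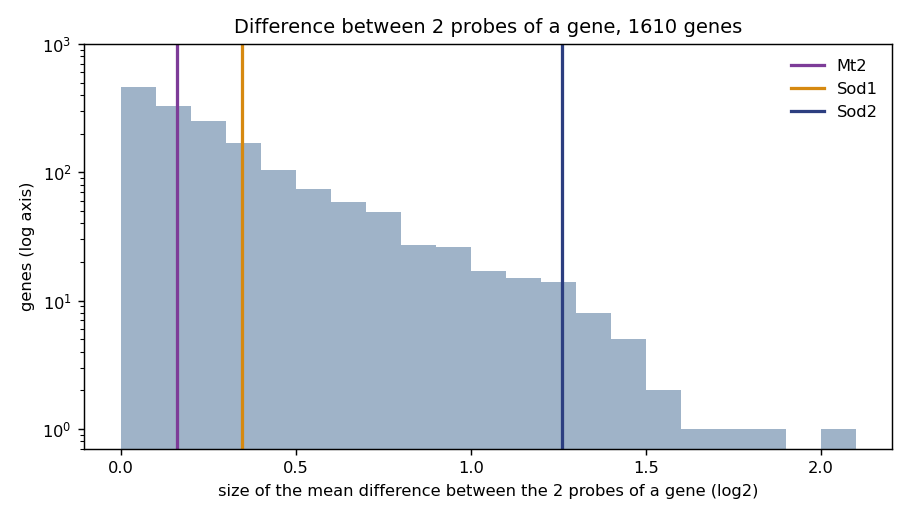
Number of genes (log axis) by the size of the mean log2 difference between their 2 probes, over 1610 genes whose probes share at least 6 arrays. Signs are as deposited. Lines mark Mt2 at 0.161, Sod1 at 0.347 and Sod2 at 1.26, where the median of all genes is 0.207.

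Sod1, the cytosolic dismutase, likewise had a steady and an unsteady probe. Probe 544 read 0.23, 0.13, -0.21 and -0.23 on untreated replicates 1 to 4 and 0.12, 0.096, 0.22 and -0.14 on nocodazole replicates 1 to 4. The 5 arrays with HM-1 in Cy5 were all positive, at 0.16 ± 0.063 (SD, n = 5), and the 3 with HM-1 in Cy3 all negative, at -0.20 ± 0.048 (SD, n = 3). None of its values was a whole-number ratio.

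With the Cy3 arrays turned, probe 544 of Sod1 was positive on all 8 arrays, between 0.096 and 0.23, with a mean of 0.17 ± 0.057 (SD, n = 8). The means were then 0.20 ± 0.050 untreated and 0.15 ± 0.055 with nocodazole (SD, n = 4 each), with overlapping ranges. Probe 544 was the 1 member probe of 6 with a value on all arrays that was higher on every Cy5 array than on every Cy3 array, a pattern found in 8.51% of 13555 such probes. The opposite pattern, lower on every Cy5 array, held for 3.31% of all probes and for 0 of the 6. One sign on all 8 arrays was found in 0.812% of the probes as deposited, with 0 of the 6 members, and in 3.46% with the Cy3 arrays turned, with probe 544 alone among the 6. The part of the dye in this pattern was not tested, and with the direction of the ratios unsettled a dye difference and a difference between the lines cannot be told apart here.

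Probe 7877 of Sod1 was missing on untreated replicates 2 and 4. Untreated replicates 1 and 3 gave 4.27 and 0.875, followed by -0.96, -0.067, -1.94 and 0.22 on nocodazole replicates 1 to 4. Without the offset the value of untreated replicate 1 was a ratio of 16, the widest of any member. The search for whole-number ratios stopped at 10, so this value was not counted among them. Whether its spot was dim was not tested. The gene value of Sod1 was 0.62 ± 1.11 untreated and -0.31 ± 0.42 with nocodazole (SD, n = 4 each), with overlapping ranges of -0.23 to 2.25 and -0.86 to 0.0385. The difference of -0.92 between the conditions became 0.096 with the probe that has the most values, 544, and -0.38 without untreated replicate 1, where the untreated mean fell to 0.0755. Without nocodazole replicate 3 the nocodazole mean was -0.12. The means became 0.57 ± 1.15 and -0.32 ± 0.40 (SD, n = 4 each) with the Cy3 arrays turned.

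Of the enzymes that remove peroxide, catalase and Prdx1 had group means within 1 SD of 0. Cat, the peroxisomal enzyme, read 0.275, -0.15, 0.29 and -0.51 untreated and 0.11, -0.12, -1.18 and 0.067 with nocodazole. Replicate 3 of the nocodazole group is the widest value, on the array with the widest ratios throughout. The means of Cat were -0.025 ± 0.39 and -0.28 ± 0.61 (SD, n = 4 each), and the groups overlapped. Without nocodazole replicate 3 the nocodazole mean was 0.020 and the difference between the conditions 0.044, against -0.26 with it. The turned means of Cat were 0.086 ± 0.37 and -0.31 ± 0.59 (SD, n = 4 each).

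Prdx1, which passes electrons from thioredoxin to peroxide, read 0.225, -0.14, -0.47 and -0.028 untreated and -0.048, -0.012, 0.094 and 0.0090 with nocodazole. The nocodazole arrays were the tightest group of 4 among the members as deposited, at 0.011 ± 0.060 (SD, n = 4), and lay within the untreated range around -0.10 ± 0.29 (SD, n = 4). Without untreated replicate 3 the untreated mean was 0.018. The turned means of Prdx1 were 0.14 ± 0.26 and 0.0063 ± 0.061 (SD, n = 4 each). On untreated replicates 3 and 4 its values were ratios of 3 to 4 and 8 to 7.

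Gpx1, which reduces peroxide with glutathione, gave 3 values on 8 arrays. It read -0.90 on untreated replicate 3, 1.47 on nocodazole replicate 2 and -0.50 on nocodazole replicate 4. The first of these was a ratio of 5 to 9 and the second of 3 to 1. Untreated replicate 1 was coded and the other 4 arrays had no value, so the lines could not be compared for Gpx1. The turned reading makes all 3 values positive, between 0.496 and 1.47.

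The metallothionein genes Mt1 and Mt2 are neighbours, with no gene listed between them, and the start regions of both hold several copies of the metal response core, the short motif through which the zinc-sensing factor Mtf1 acts. The core was searched as TGCACNC or TGCGCNC on both strands of a window from 250 bases before to 50 after each gene's start (RefSeq, GRCm38.p6). The windows are shown because Mt1 and 1 of the 2 Mt2 probes, 13607, had the same sign, once array medians were subtracted, on every array they share. They run from 250 bases before to 30 after the start, with the core matches in capitals. Mt1 has matches beginning at -23, 3 and 21, and Mt2 at -223 and -128 on the forward strand and at -50 and 5 on the reverse.
Mt1 (chr8:94178839-94179118, + strand): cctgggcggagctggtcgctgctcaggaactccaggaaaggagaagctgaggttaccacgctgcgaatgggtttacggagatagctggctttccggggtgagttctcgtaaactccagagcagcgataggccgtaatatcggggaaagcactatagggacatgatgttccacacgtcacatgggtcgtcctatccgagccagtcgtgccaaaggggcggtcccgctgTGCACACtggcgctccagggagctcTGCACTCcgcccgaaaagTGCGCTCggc
Mt2 (chr8:94172368-94172647, + strand): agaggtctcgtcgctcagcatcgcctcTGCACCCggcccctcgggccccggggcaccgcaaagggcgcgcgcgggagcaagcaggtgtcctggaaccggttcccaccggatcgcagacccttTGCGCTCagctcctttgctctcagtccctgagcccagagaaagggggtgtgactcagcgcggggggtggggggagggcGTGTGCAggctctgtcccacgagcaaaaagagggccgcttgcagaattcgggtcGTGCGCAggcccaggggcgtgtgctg

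At least 1 match to the metal response core was found in 25.6% of 27025 such windows and 3 or more in 2.00%, while the windows of the other 5 members held 0. The antioxidant response core, TGACNNNGC, through which Nrf2 acts, had 1 match each in Sod1, Prdx1 and Mt2 and occurs in 12.5% of windows. The GC box, GGGCGG, was found 4 times in Sod2 and in Sod1, 3 times in Mt1, 1 time each in Cat, Gpx1 and Prdx1 and 0 times in Mt2, and occurs in 35.9% of windows. The match of Mt1 at 3 overlaps a GC box by its last base, and the GC boxes of Sod1 overlap in pairs. These letters are a description of the windows and do not show that a factor was bound.

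Mt1 read -1.47, -0.70, 0.59 and 0.19 on untreated replicates 1 to 4 and -0.18 and 0.595 on nocodazole replicates 1 and 2. It was missing on nocodazole replicate 3 and coded on nocodazole replicate 4. Its untreated arrays split by dye label, the Cy5 pair negative and the Cy3 pair positive. The means were -0.35 ± 0.92 (SD, n = 4) and 0.21 ± 0.55 (SD, n = 2), and the groups overlapped. Without untreated replicate 1 the untreated mean of Mt1 was 0.026. The values of untreated replicates 1, 2 and 4 and nocodazole replicate 1 were whole-number ratios, of 3 to 10, 5 to 9, 4 to 3 and 1 to 1.

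Mt2 has 2 probes with a value on every array. Probe 13607 read -0.81, -0.83, 0.40 and 0.546 untreated and -0.038, 0.32, 0.225 and -0.77 with nocodazole, none of them a whole-number ratio. With array medians subtracted, it has the same sign as Mt1 on all 6 arrays where Mt1 has a value. Both are negative on untreated replicates 1 and 2 and nocodazole replicate 1 and positive on the others. Before that subtraction, nocodazole replicate 1 read -0.064 for Mt1 and 0.077 for probe 13607, opposite in sign. How often other pairs of probes share their signs was not counted.

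As deposited, the means of Mt2 probe 13607 were -0.17 ± 0.75 untreated and -0.066 ± 0.49 with nocodazole (SD, n = 4 each), with wholly overlapping ranges. With the Cy3 arrays turned, the 4 untreated arrays lay between -0.83 and -0.40 and the 4 nocodazole arrays between -0.038 and 0.77. The groups then did not overlap, with means of -0.645 ± 0.21 and 0.32 ± 0.34 (SD, n = 4 each). Among 13555 probes with all values, 3.53% separated the groups under this reading and 2.00% under the deposited signs, of the members' 6 probes 1 and 0. The turned untreated values of Mt1 lay between -1.47 and -0.19, around -0.74 ± 0.53 (SD, n = 4). Both of its nocodazole values, -0.18 and 0.595, were above these, but the nearest were only narrowly apart. These were -0.193 on untreated replicate 4 and -0.179 on nocodazole replicate 1, each a whole-number ratio. How many probes with as few values part in this way was not counted.

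**Figure D4:**
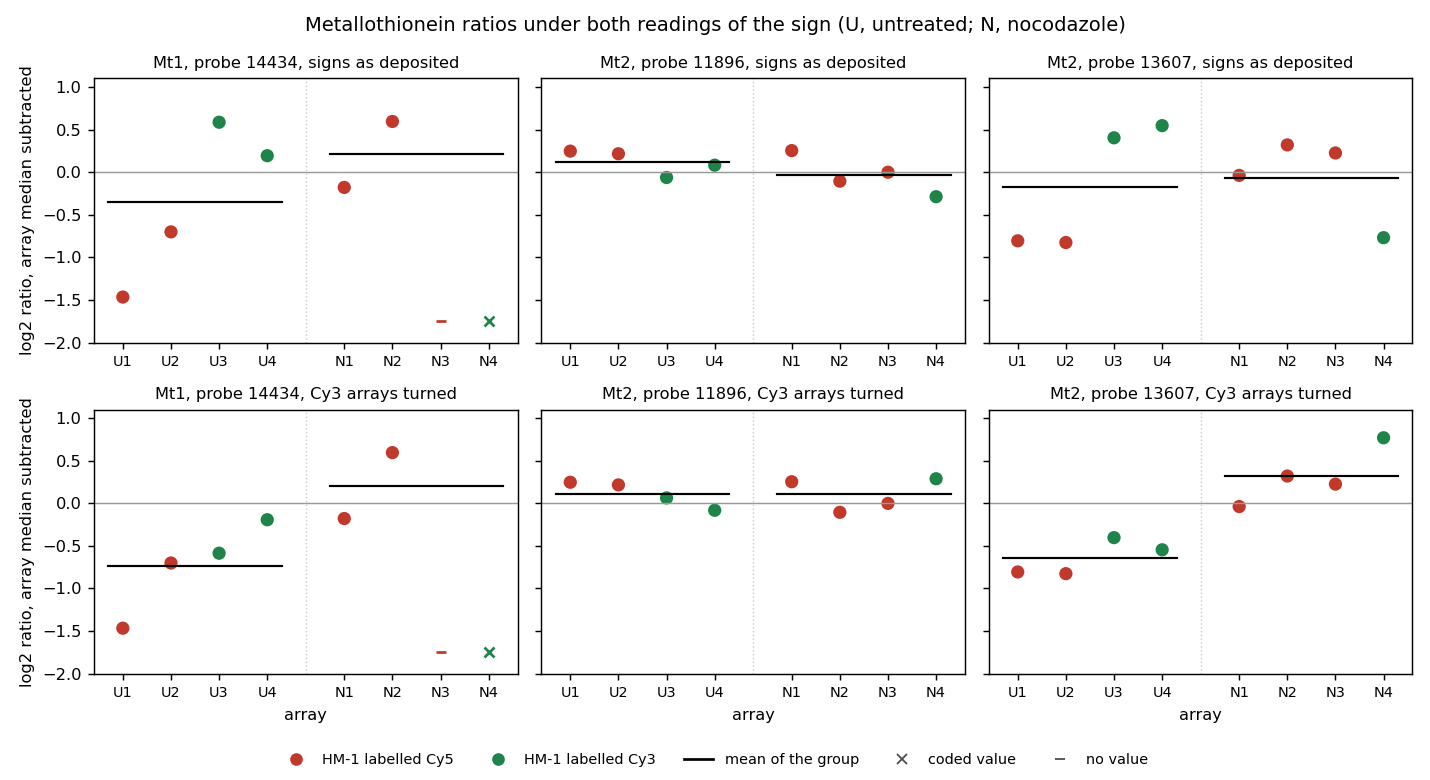
Log2 ratio (array median subtracted) of the Mt1 probe and both Mt2 probes on each array, with signs as deposited (top) and with the arrays that carry HM-1 in Cy3 turned (bottom). Bars are group means and colours the dye of HM-1. Only in the bottom row do untreated and nocodazole arrays of Mt2 probe 13607 part, at -0.83 to -0.40 and -0.038 to 0.77.

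The other Mt2 probe, 11896, did not share this pattern. It read 0.25, 0.22, -0.063 and 0.082 untreated and 0.25, -0.11, -0.0010 and -0.29 with nocodazole, with means of 0.12 ± 0.14 and -0.036 ± 0.23 (SD, n = 4 each). With the Cy3 arrays turned its means were 0.11 ± 0.15 and 0.11 ± 0.19 (SD, n = 4 each). The gene value of Mt2 differed between the conditions by 0.40 on the arrays with HM-1 in Cy5 and by -0.77 on those with HM-1 in Cy3, 1 of which had nocodazole. The sign of the difference therefore goes with the dye label, and the pooled difference as deposited was -0.025 (0.48 with the Cy3 arrays turned).

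Around these members, 119 other genes of redox biology were listed by function, of which 86 had a probe and 82 entered the fit. In limma's fit over 14015 features, with Benjamini-Hochberg adjustment, 0 features (0%) passed the threshold of 0.05 in untreated cells, with nocodazole, in the mean of both or in the change between them. At an unadjusted p under 0.05 the shares of all features were 6.33%, 2.91%, 5.58% and 3.29% in these comparisons. Of the 82 redox genes, 9 reached that level untreated (6 positive, 3 negative), 3 with nocodazole (1 and 2), 9 in the mean (5 and 4) and 5 in the change (1 and 4), and 0 passed after adjustment. These are 10.98%, 3.66%, 10.98% and 6.10% of the list, whose median ratios of -0.028 untreated and -0.070 with nocodazole compare with -0.00050 and -0.0045 over all features.

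With the Cy3 arrays turned, 10.5%, 5.13%, 10.4% and 4.87% of all features and 11, 11, 16 and 5 of the redox genes had an unadjusted p under 0.05. The counts as deposited move when single arrays are left out, and so do the counts over all features. The untreated count of 9 was 5 without untreated replicate 2 and 4 without untreated replicate 3. Over all features, 887 of 14015 became 662 of 12950 and 620 of 12928. The count of 3 with nocodazole was 1 without nocodazole replicate 2 and 5 without nocodazole replicate 3. Over all features, 408 of 14015 became 338 of 12861 and 394 of 13330. The 9 of the mean were 5 without nocodazole replicate 2 and 4 without nocodazole replicate 4. There 782 of 14015 features became 493 of 12861 and 778 of 12902. The 5 of the change were 2 without untreated replicate 1 or nocodazole replicate 1, and 3 without untreated replicate 3 or 4 or nocodazole replicate 2 or 3. Over all features, 461 of 14015 became 513 of 12919 and 416 of 12857 in the former. In the latter they were 370 of 12928, 422 of 12913, 385 of 12861 and 467 of 13330, in this order.

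**Figure D5:**
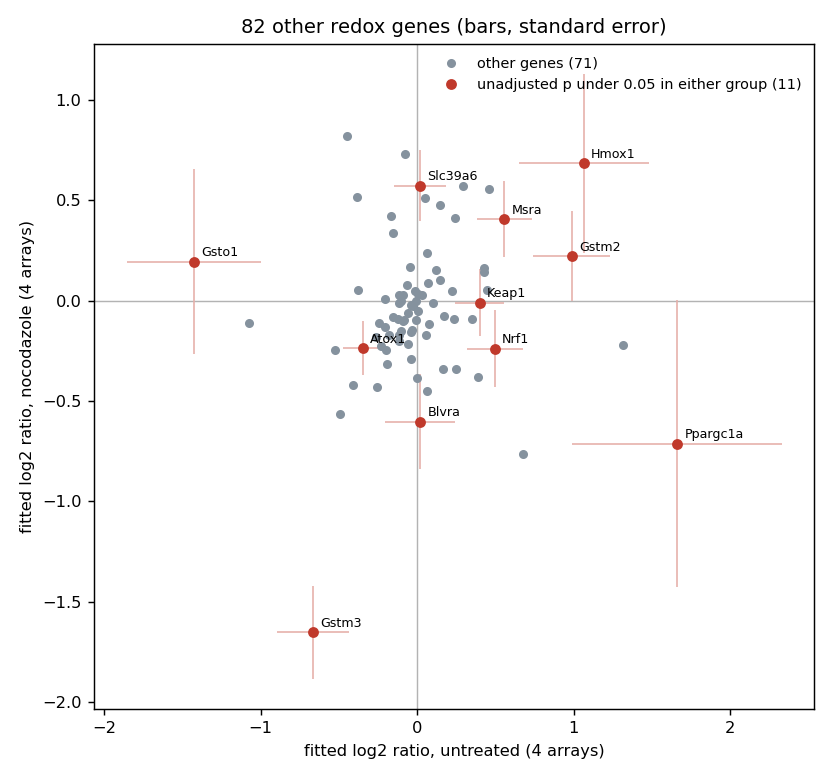
Fitted log2 ratio between the lines in untreated cells (horizontal) and with nocodazole (vertical) for the 82 other redox genes tested, with deposited signs. Red points with standard errors are the 11 genes with an unadjusted p under 0.05 in either group, among them Gstm3 at -0.67 and -1.65, and none passed adjustment.

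The signs of single redox genes depend on the reading. Of the 23 redox genes named for their function or their p, 15 had an untreated mean and 6 a nocodazole mean of the opposite sign when the Cy3 arrays were turned. Turning changes untreated replicates 3 and 4 but only nocodazole replicate 4, so the design itself favours reversals in the untreated mean. The share of all features that reverse was not counted. Counts by list below, at an unadjusted p under 0.05, are as deposited. Turned, untreated counts were 1 of 10 superoxide and peroxide enzymes, 2 of 9 thioredoxin, 2 of 18 glutathione and 0 of 12 Nrf2 genes. Metal handling had 4 of 15, all negative, and factors on Sod2 and mitochondria 1 of 11. With nocodazole the turned counts were 2, 2, 0, 2, 1 and 3 in this order. Of all features, 10.5% untreated and 5.13% with nocodazole had such a p when turned.

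Among enzymes of superoxide and peroxide, 1 of 10 genes tested had an unadjusted p under 0.05 untreated and 0 with nocodazole. This gene was Msra, which repairs oxidised methionine, at a fitted ratio of 0.56 ± 0.18 (SE, unadjusted p = 0.018, adjusted p = 0.755 in limma). Turning the Cy3 arrays reversed its sign, to -0.31 ± 0.15 untreated, -0.68 ± 0.16 with nocodazole and -0.49 ± 0.11 in the mean (SE, unadjusted p = 0.083, 0.0048 and 0.0035, adjusted p = 0.540, 0.808 and 0.308). Ccs, the copper chaperone of Sod1, was at -0.12 ± 0.24 untreated and 0.048 ± 0.16 with nocodazole (SD, n = 4 each). Sod3, the extracellular dismutase, was at -0.056 ± 0.20 and -0.19 ± 0.41 (SD, n = 4 each). The turned untreated means were positive for both, 0.20 for Ccs and 0.16 for Sod3.

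Gpx4, which reduces lipid peroxides, was positive on all 8 arrays as deposited, with means of 0.46 ± 0.47 and 0.53 ± 0.59 in the untreated and nocodazole groups (SD, n = 4 each), and of mixed sign when the Cy3 arrays are turned, at 0.31 and -0.16. Its spread is as wide as its means. Prdx2, a close relative of Prdx1, was at 0.91 ± 2.18 (SD, n = 3) and -0.875 ± 0.28 (SD, n = 2), with a turned untreated mean of 0.13. Prdx3, the mitochondrial peroxiredoxin, had no named probe.

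Of the genes of glutathione synthesis and transfer, 3 of 18 had an unadjusted p under 0.05 untreated and 1 with nocodazole. Gstm3, a glutathione transferase, read -0.93, -0.39 and -0.485 on untreated replicates 1, 3 and 4, whereas nocodazole replicates 1, 2 and 4 gave -1.31, -2.32 and -1.53. It was negative on all 6 arrays that have a value as deposited. Of its 6 values, 2 were whole-number ratios. How many features with as few values keep 1 sign, or part the groups, was not counted. With the Cy3 arrays turned the signs were mixed and the groups overlapped, around -0.019 ± 0.79 and -0.70 ± 1.99 (SD, n = 3 each). Its fitted ratio was -0.67 ± 0.23 untreated and -1.65 ± 0.23 with nocodazole (SE, unadjusted p = 0.0012 for the latter, adjusted p = 0.999 in limma), and the fitted change was -0.99 ± 0.33 (SE, unadjusted p = 0.033, adjusted p = 0.997). Turned, the fitted change was 0.10 ± 0.55 (SE, unadjusted p = 0.860, adjusted p = 0.987).

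Neither of the other transferases named by their p was negative throughout. Gstm2 had a mean of 0.98 ± 0.19 (SD, n = 3) in untreated cells, against 0.24 ± 0.50 (SD, n = 4) with nocodazole. Gsto1 was at -1.43 ± 1.09 and 0.17 ± 0.63 (SD, n = 4 each). Turned, the untreated means of both changed sign, to -0.46 for Gstm2 and 0.32 for Gsto1. Gss, which completes glutathione synthesis and had no value on nocodazole replicate 3, had a fitted mean of both conditions of -0.53 ± 0.16 (SE, unadjusted p = 0.017, adjusted p = 0.896 in limma), and of -0.33 ± 0.14 when turned.

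The Nrf2 pathway, which induces antioxidant genes under oxidative stress, had 2 of 12 genes at an unadjusted p under 0.05 untreated, both positive, and 1 negative with nocodazole. Nfe2l2, the gene of Nrf2, was at -0.026 ± 0.21 and 0.056 ± 0.26 (SD, n = 4 each). Its inhibitor Keap1 was at 0.40 ± 0.30 untreated and -0.056 ± 0.31 with nocodazole (SD, n = 4 each). Turned, the untreated means became 0.17 for Nfe2l2 and -0.11 for Keap1.

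Hmox1, the haem oxygenase induced by Nrf2, had wide ratios, at 1.07 ± 1.32 and 0.12 ± 1.63 (SD, n = 4 each), and was higher on every Cy3 array than on every Cy5 array. The fitted mean of Hmox1 over both conditions was 0.87 as deposited and -1.19 ± 0.30 with the Cy3 arrays turned (SE, unadjusted p = 0.0061, adjusted p = 0.320 in limma). Blvra, which reduces the biliverdin that haem oxygenase makes, was at 0.019 ± 0.18 untreated and -0.74 ± 0.72 with nocodazole (SD, n = 4 each), and kept its signs when turned, at 0.043 and -0.88. Nqo1 had no named probe.

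Genes of metal handling had 1 of 15 at an unadjusted p under 0.05 in each group. Atox1, a copper chaperone, was negative on all 4 untreated arrays at -0.35 ± 0.13 and at -0.19 ± 0.31 with nocodazole (SD, n = 4 each), but had a turned untreated mean of 0.093. The zinc transporter Slc39a6 was at 0.0195 ± 0.38 and 0.51 ± 0.30 (SD, n = 4 each), and at -0.30 and 0.32 when turned. Mtf1, the factor that acts on the metal response core of Mt1 and Mt2, was at 0.24 ± 1.55 and 0.068 ± 0.19, and the zinc exporter Slc30a1, another of its targets, at -0.18 ± 0.21 and -0.215 ± 0.66 (SD, n = 4 each). Turned, Mtf1 was at -1.13 and -0.044 and Slc30a1 at 0.061 and -0.315.

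Among factors that act on Sod2 and on mitochondria, 2 of 11 were at an unadjusted p under 0.05 untreated, both positive, and 2 in the change, both negative. Nrf1, the nuclear respiratory factor, had a fitted change of -0.73 ± 0.26, and Ppargc1a, a coactivator of mitochondrial genes, one of -2.37 ± 0.98 (SE, unadjusted p = 0.028 and 0.048, adjusted p = 0.997 for both in limma). Turned, these changes were -0.52 ± 0.33 and -2.19 ± 1.04 (SE, unadjusted p = 0.166 and 0.075), and the fitted mean of Nrf1 over both conditions was -0.69 ± 0.17 (SE, unadjusted p = 0.0049, adjusted p = 0.308). Foxo3, a factor known to act on the Sod2 promoter, was at -0.53 ± 1.05 untreated and -0.31 ± 0.26 with nocodazole (SD, n = 4 each), and at -0.28 and -0.079 when turned. In the thioredoxin system 0 of 9 genes had such a p untreated or with nocodazole as deposited, and 2 of 9 in each group when turned. In the change as deposited 1 gene had it, Nxn, a thioredoxin-like oxidoreductase, at -1.45 ± 0.54 (SE, unadjusted p = 0.033, adjusted p = 0.997), or -0.090 ± 0.78 when turned. Of 7 sources of superoxide and peroxide 0 had such a p in either group as deposited, and 1 in each group when turned.

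The dye pattern of Sod1 probe 544 was shared by other redox genes. Of the 85 probes of these lists with all 8 values, 12, or 14.1%, were higher on every Cy5 array than on every Cy3 array, beside 8.51% of all probes, and 4, or 4.71%, were lower, beside 3.31%. The 12 were probes of Blvrb, Fth1, Gstm5, Gstp1, Mgst3, Msrb1, Nfkbia, Ppargc1b, Prdx4, Tfam, Txn1 and Txnrd1. Txn1, the thioredoxin that serves the peroxiredoxins, was at 0.16 ± 0.034 with HM-1 in Cy5 (SD, n = 5) and -0.40 ± 0.13 with HM-1 in Cy3 (SD, n = 3). Prdx4, the peroxiredoxin of the secretory pathway, was at 0.098 ± 0.057 and -0.29 ± 0.091, and probe 4524, 1 of 2 probes of Txnrd1, which reduces thioredoxin, at 0.16 ± 0.075 and -0.25 ± 0.23 (SD, n = 5 and n = 3). The mean of both Txnrd1 probes showed no such split, at -0.00080 ± 0.32 and -0.099 ± 0.27. As for Sod1, the values of Txn1, Prdx4 and probe 4524 turn to 1 sign when the Cy3 arrays are turned. The turned fitted mean of Txn1 over both conditions was 0.28 ± 0.059 (SE, unadjusted p = 0.0026, adjusted p = 0.284 in limma).

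Likeness to Sod2 was measured as Pearson's r over the 8 arrays among 7487 named genes with a value on all of them, as a description of points that share arrays and dye labels. For the mean of both probes the highest r were those of Nfkbil1 (0.97), Spock1 (0.97), Gab3 (0.96), Bloc1s2 (0.94) and Lrrc46 (0.93), and the lowest those of Tpd52l1 (-0.98), Samhd1 (-0.95), Nmt1 (-0.94), Btk (-0.94) and Prr9 (-0.94). On untreated replicates 1 and 2 this mean rests on probe 15108 alone, at -0.055 and -0.022, against -1.05 to -0.45 elsewhere. The genes just named as highest had their largest values on those arrays, and the lowest their most negative. Likeness to this mean therefore cannot be told apart from likeness to where a probe lacked a value. All r are for the deposited signs, and no turned r is given. With probe 15108 alone the highest were Agrn (0.98), Trappc6a (0.97), Ado (0.97), Tpx2 (0.97) and Lmtk2 (0.97), and the lowest Sdhaf2 (-0.96), Psmc5 (-0.95), AI837181 (-0.94), Adgrf5 (-0.92) and Ptpn6 (-0.92). No gene stands in both sets. Among the members, r with the mean of both Sod2 probes was 0.49 for Sod1, 0.020 for Cat, 0.46 for Prdx1 and -0.66 for Mt2, and with probe 15108 alone 0.025, 0.21, 0.34 and -0.37.

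Ratios give no level, so the labelled cell type could not be checked against an absence of markers. Markers of embryonic stem cells, of primitive endoderm and of feeder fibroblasts had a value for 11 of 19, 16 of 20 and 17 of 20 genes. Their medians on the 4 untreated arrays ran from -0.028 to 0.395, from -0.53 to 0.070 and from -0.18 to -0.0945. On the nocodazole arrays they ran from -0.33 to 0.24, from -0.74 to 0.078 and from -0.42 to 0.0010. Their part in the ratios of the antioxidant genes was not tested.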

How the data were processed

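The deposited table holds 1 log2 ratio per probe and array, with 1 offset per array. Its scale was inferred from the numbers themselves, and how the authors corrected and normalized them, and with what software, is not given in the sources used here. Coded ratios were set to missing, arrays were centred on their median, and probes of 1 symbol were averaged within each array. The annotation gave 1 symbol to 14030 probes, several to 5 and none to 6320, and 13994 probes matched the RefSeq gene table. Of 16255 features, 14015 had values on at least 3 arrays of each group, 8726 of them named. These were tested with limma (3.58.1, statmod 1.5.0, R 4.3.3), a coefficient per group and a dye term over all 8 arrays, two-sided, and the code was tested on simulated data. The number of arrays limits the precision.

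The members and the gene lists were chosen with earlier results of these data known. Text names each member, the redox genes at an unadjusted p under 0.05 (at most 6 per comparison, by smallest p), 14 partners fixed by function, and the 5 genes most and least like Sod2. Genes named for the dye pattern (Prdx4, Txn1 and the like) were chosen after their values were seen. Alternatives covered the coded values, direction, dye term and label, replicate block, array weights, filter, scaling, centring, choice of probe and each array left out. Leaving out whole-number ratios was chosen after seeing the data.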

Additional observations from a re-analysis of the deposited data

Results flagged for a closer look

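In 61 groups of 4 arrays looked at, 3 had 1 array far from the others, which chance gives in about 1 of 20 groups. The mean of the Mt2 probes was -0.53 on nocodazole replicate 4, the array of that group with HM-1 in Cy3, while the other nocodazole arrays lay at 0.11. Keap1, the inhibitor of Nrf2, was at -0.525 on nocodazole replicate 1, with the others between 0.052 and 0.14. Sod3, the extracellular dismutase, was at -0.79 on nocodazole replicate 1, with the others between -0.056 and 0.085.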

How the results depend on the processing

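The count of features past the threshold was 0 in each comparison and stayed 0 under the alternatives, except 1 with nocodazole when values were required on all 8 arrays and 0 to 1 in the change when arrays were left out. Redox genes at an unadjusted p under 0.05 in untreated cells (9) numbered 5 with nocodazole replicate 3 counted as Cy3, 4 with arrays scaled, 5 with the probe of most values, 5 without whole-number ratios and 4 to 10 with arrays left out. Over all features the untreated count of 887 became 837, 778, 925, 698 and 620 to 998, in this order. Without whole-number ratios 11519 features were tested, against 14015 in full. With nocodazole (3) redox genes numbered 11 with the Cy3 arrays turned, 6 with the replicate block, 6 with array weights and 1 to 5 with arrays left out. All features went from 408 to 719, 676, 463 and 326 to 653. In the mean (9) redox genes numbered 16 turned, 4 without whole-number ratios and 4 to 9 with arrays left out. All features went from 782 to 1464, 616 and 493 to 939. In the change (5) redox genes numbered 3 with array weights, 2 with the probe of most values, 2 without whole-number ratios and 2 to 6 with arrays left out. All features went from 461 to 526, 440, 359 and 370 to 579. The cause was not tested.

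The Sod2 ratio untreated (-0.52) was 1.60 with coded values kept and 0.48 turned, and -0.68 to -0.34 with arrays left out. With nocodazole (-0.62) it was -0.31 turned, -0.034 with the probe of most values, -0.35 without whole-number ratios and -0.67 to -0.55 with arrays left out. The mean (-0.57) was 0.49 with coded values kept, 0.084 turned, -0.094 with the probe of most values and -0.65 to -0.48 with arrays left out. The change (-0.10) was -2.22 with coded values kept, -0.79 turned, -0.58 on Cy5 arrays, 0.38 on Cy3 arrays and -0.28 to 0.065 with arrays left out.

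Same-numbered arrays of the groups correlated at 0.13, 0.022, -0.064 and 0.077. No label says what the numbers share, and these values do not settle whether they pair the arrays. Replicate 3 has HM-1 in Cy3 untreated and in Cy5 with nocodazole. Replicates 1 and 4 correlated best with their own number. With the replicate block 0 features passed.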
